A study of Homo sapiens with 8 samples.

Results

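The HOX genes of the 4 human clusters were examined one by one and then cluster by cluster in HL-60 cells, a human leukemia cell line. The members were fixed by name and place on hg19 and not by any measured value. They were 38 genes of the 20103 protein-coding genes annotated, with 10 in HOXA (chromosome 7), 10 in HOXB (chromosome 17), 9 in HOXC (chromosome 12) and 9 in HOXD (chromosome 2). For each gene, the base pairs (bp) lying under peaks were summed over the gene body and 2 kb on each side, and a peak was looked for at the transcription start site (TSS) of the canonical transcript.

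The HL-60 cells (ATCC CCL-240, labelled as derived from peripheral blood in acute promyelocytic leukemia) received 1 µM all-trans retinoic acid (ATRA) for 4 days, or the ethanol in which ATRA was dissolved, with medium and agent renewed midway. Chromatin immunoprecipitation sequencing (ChIP-seq) was performed with antibodies to H3K4me3, a histone mark of active promoters, and to H3K27ac, a mark of active enhancers and promoters. Each mark and each condition had 2 replicates, which gave 8 peak lists. No list came from another line or from another dose or time.

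HOX genes encode homeodomain transcription factors that lay out the body axis, and their order along each cluster follows the order in which they act in the embryo. Genes at the same place in different clusters are paralogues and share a number. In blood, the HOXA and HOXB genes are known for their activity in stem and progenitor cells and in several leukemias, and Polycomb and Trithorax proteins keep clusters silent or active. Retinoic acid is a classical inducer of the low-numbered genes, through retinoic acid receptors bound to short DNA elements in and around the clusters.

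A well-known receptor element of HOX clusters is a direct repeat of a 6-base half-site with a spacer of 5 bases, called DR5. Its matches are shown because ATRA was the only agent that differed between the groups. A half-site was counted as A or G, then G, then G or T, then TCA, on both strands, over each cluster and 10 kb on each side. Repeats with a spacer of 1 base (DR1) or 2 bases (DR2) were counted too. DR1 occurred at 0.835 (HOXA), 0.908 (HOXB), 0.00 (HOXC) and 0.846 (HOXD) per 100 kb, against 0.387 over the 4 chromosomes. DR2 occurred at 0.835, 2.72, 0.00 and 0.846 per 100 kb in the same order, against 4.13. DR5 matches numbered 2 in HOXA, 2 in HOXB, 0 in HOXC and 1 in HOXD. The density was 1.67 per 100 kb in HOXA, 0.908 in HOXB and 0.846 in HOXD, against 0.203 per 100 kb over the 4 chromosomes. Windows of the same length on these chromosomes held at least 1 match in 21.4% (HOXA length), 35.7% (HOXB), 23.8% (HOXC) and 21.0% (HOXD) of cases, and at least 2 matches, as HOXA and HOXB did, in 2.58% (HOXA length) and 7.67% (HOXB length). DR5 matches over 20103 promoters of 300 bp occurred in 0.0547%, and in none of the 38 HOX promoters.

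Of these matches, 3 lay at like places in the paralogues HOXA3, HOXB3 and HOXD3, and 1 lay beyond HOXB1. They are printed 5′ to 3′ on the strand of the match, from the GRCh37 sequence (the same assembly as hg19), with the 17 bases of the repeat and its spacer in capitals:
HOXA3, chr7:27153143-27153159, minus strand: aatctcGGTTCAAGAAGAGTTCAcaagcc
HOXB3, chr17:46632792-46632808, minus strand: aatctcGGTTCAAGAAGAGTTCAcaagct
HOXD3, chr2:177030641-177030657, plus strand: tttttaGGTTCAAGCAGAGTTCAcaagga
beyond HOXB1, chr17:46599636-46599652, minus strand: cttcccGGTTCATAGAGAGTTCAgccctg

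The 17 bases were identical in HOXA3 and HOXB3, and HOXD3 differed from both by A9C, counted from 1 at the 5′ end of the repeat. Over 117 bases centred on the repeat, with no gaps allowed, identity was 47.0% between HOXA3 and HOXB3 and 41.9% between HOXA3 and HOXD3. The HOXA3 and HOXD3 matches lay within these genes and in no annotated exon, and the HOXB3 match touched an exon of a HOXB3 transcript. The match beyond HOXB1 lay in no annotated gene. A match is a description of letters and not evidence that a receptor was bound.

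None of the 5 DR5 matches lay under a peak of either mark in any of the 8 libraries. The nearest H3K4me3 border to the HOXA3 match was 13386 and 13599 bp away with ATRA and 13675 and 14315 bp away in the control. For HOXB3 the nearest H3K4me3 border was 29692 and 29685 bp away with ATRA and 29635 and 29733 bp away in the control. For HOXD3 the distances were 10751 and 11111 bp with ATRA and 11489 and 11506 bp in the control. The match that lay beyond HOXA2 was the closest to a marked domain, at 1088 and 357 bp with ATRA and at 2092 and 1298 bp in the control. In ATRA replicate 1 and both control libraries, the nearest border was the start of the domain over HOTAIRM1. This is a long non-coding RNA gene of the HOXA cluster described in myeloid cells. In ATRA replicate 2 another peak lay nearer. The HOTAIRM1 domain itself began at 27131952 and 27132643 on chromosome 7 with ATRA and at 27132956 and 27132162 in the control. These starts overlapped between the groups.

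The libraries differed in how much was called. H3K4me3 lists held 13241 to 16487 peaks over 47.7 to 63.2 Mb, the smallest being control replicate 2. H3K27ac lists held 15457 to 39332 peaks over 28.8 to 86.2 Mb, the smallest being control replicate 1. Over genes covered in all libraries of a mark, the median log2 ratio of ATRA to control coverage was 0.15 for H3K4me3 and 0.47 for H3K27ac, and it was -0.08 and -0.46 once each library was divided by its total. Read depth is unknown. With 2 libraries against 2, the smallest two-sided p that the exact permutation test can give is 0.3333, so a difference is described by whether the libraries of the groups overlapped. The myeloid genes MPO, SPI1, CEBPA, CEBPE, CD33 and CSF3R carried H3K4me3 at the TSS in all 4 libraries, which were 6 of 9 myeloid markers, against 0 of 10 markers of other lineages. CD38, which ATRA induces in HL-60, had 4904 and 9749 bp of H3K4me3 with ATRA and 1409 and 1022 bp in the control. It was 1 of 4 granulocytic markers, of which 3 (CD38, ITGAM and NCF1) were higher in both ATRA libraries, against 38.4% of protein-coding genes with a peak. The groups overlapped for FPR1.

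H3K4me3 was sparse at HOX promoters. A peak covered the TSS in all 4 libraries for 4 of 38 HOX genes (HOXA13, HOXC9, HOXD11 and HOXD13), against 50.4% of all protein-coding genes. A further pair, HOXC8 and HOXC11, had a TSS peak in ATRA replicate 1 and control replicate 1 and in neither library numbered 2. The other 32 had none. At the level of the whole gene with its flanks, 16 of 38 HOX genes had no H3K4me3 peak in any library, against 36.0% of all protein-coding genes, and 15 were covered in all 4 libraries. HOX intervals overlap one another, so that 1 peak can be counted for several genes: HOXA3 and HOXA6 shared a peak, as did HOXB3 and HOXB6, HOXB7 and HOXB8, and HOXC4 and HOXC6.

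**Figure D1:**
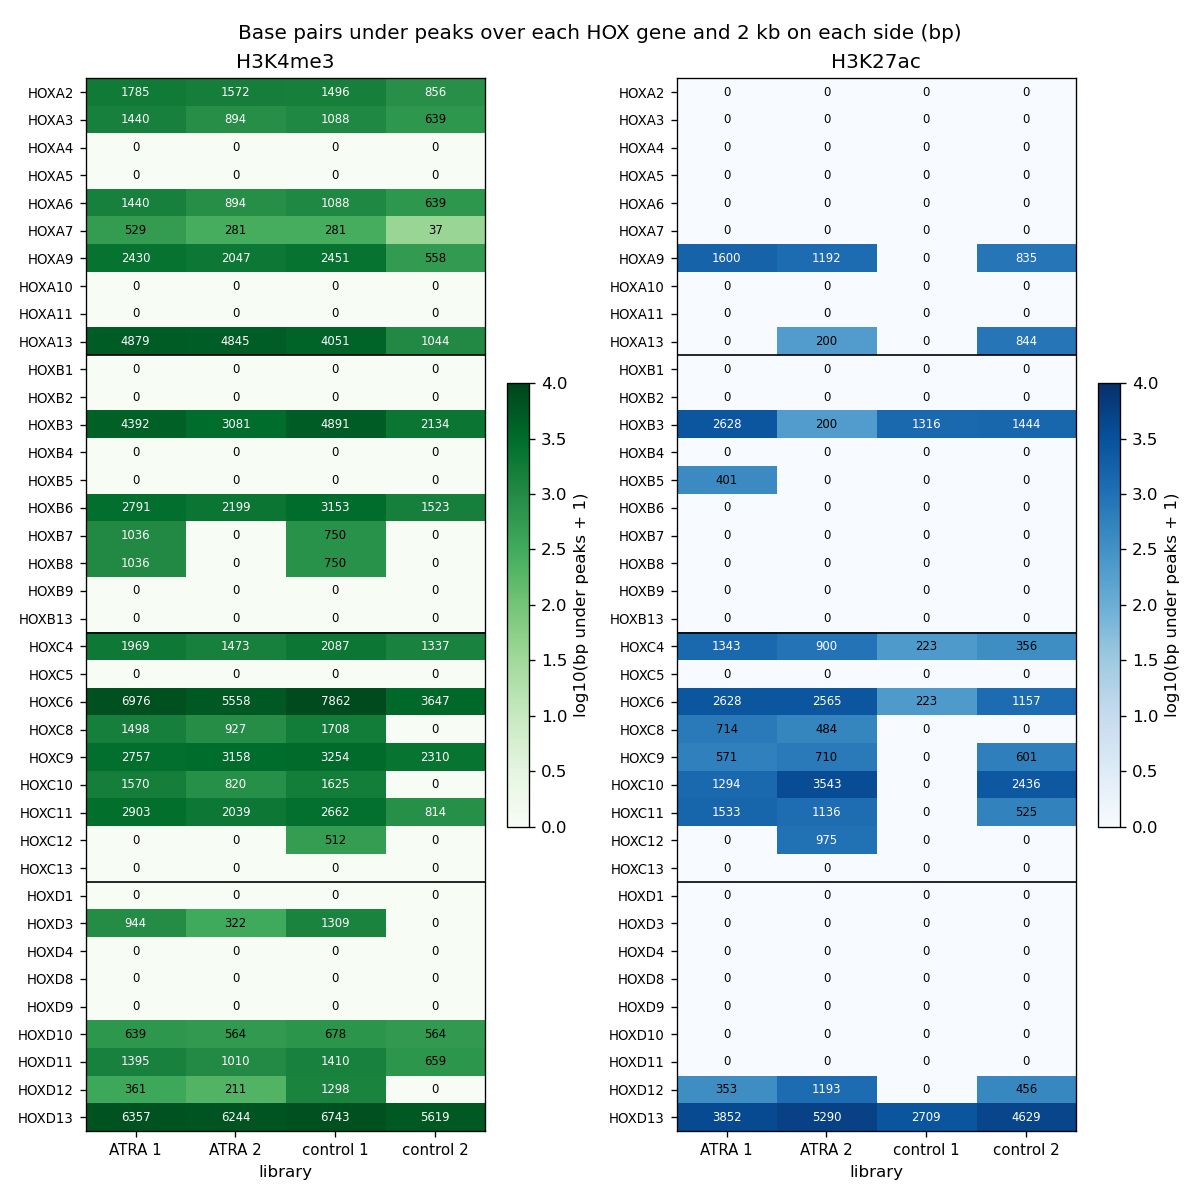
Each cell gives the base pairs under H3K4me3 peaks (left, green) or H3K27ac peaks (right, blue) over a HOX gene and 2 kb on each side in one library, with colour on a log10 scale and black lines between clusters. HOXC6 and HOXD13 carry the darkest H3K4me3 rows in both conditions, and 15 genes are at 0 for both marks in every library.

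By position in the cluster, all 4 genes with a TSS peak throughout were posterior, that is, of paralogue groups 9 to 13, which hold 16 of the 38 genes. None of the 11 anterior genes (groups 1 to 4) and none of the 11 central genes (groups 5 to 8) had one. This rests on the canonical start. At any annotated transcript start, the central gene HOXB6 also had a peak in both ATRA libraries, though not in both control libraries. H3K4me3 over the gene and flanks was found in all 4 libraries for 7 of 16 posterior, 4 of 11 central and 4 of 11 anterior genes. Within paralogue group 13, HOXA13 and HOXD13 were marked at the TSS, whereas HOXB13 and HOXC13 had no peak of either mark in any library. Within group 9, HOXC9 was marked, and HOXA9, HOXB9 and HOXD9 had no TSS peak. The anterior genes HOXB1, HOXB2, HOXB4, HOXD1, HOXD4 and HOXA4, several of them textbook retinoic acid targets, stood at 0 bp of both marks in the ATRA libraries as in the control.

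Promoter composition was set beside the marks, since CpG-rich promoters are the usual sites of H3K4me3. In windows from 250 bp before to 50 bp after the TSS, the 4 HOX promoters marked in all libraries had a median of 25.5 CpG (range 16 to 44), and the 32 unmarked HOX promoters had a median of 16 (range 4 to 36). All protein-coding promoters had a median of 23, with 28 where H3K4me3 was present in all 4 libraries and 10 where it was absent. Of 14896 promoters with at least 10 CpG, 65.0% carried H3K4me3 at the TSS in all 4 libraries; for the HOX genes this was 4 of 34. Promoters of HOXA13 and HOXD13, which were marked, are printed beside that of HOXD1, an unmarked promoter chosen after its values were seen because it had the most CpG (36) of the unmarked HOX genes. Each run is the 250 bases before the TSS on the strand of the gene, from GRCh37, with every CpG in capitals:
HOXA13, chr7:27239711-27239960, minus strand: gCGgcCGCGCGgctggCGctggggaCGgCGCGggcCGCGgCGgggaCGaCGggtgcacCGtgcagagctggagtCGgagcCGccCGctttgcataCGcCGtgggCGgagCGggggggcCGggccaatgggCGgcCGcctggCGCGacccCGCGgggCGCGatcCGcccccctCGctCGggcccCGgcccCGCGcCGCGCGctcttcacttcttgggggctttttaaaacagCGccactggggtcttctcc
HOXD13, chr2:176957199-176957448, plus strand: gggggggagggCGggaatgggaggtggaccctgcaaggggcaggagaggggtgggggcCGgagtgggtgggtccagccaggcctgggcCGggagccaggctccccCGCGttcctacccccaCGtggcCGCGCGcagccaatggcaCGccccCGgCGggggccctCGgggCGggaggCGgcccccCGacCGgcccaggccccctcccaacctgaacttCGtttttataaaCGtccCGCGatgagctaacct
HOXD1, chr2:177053146-177053395, plus strand: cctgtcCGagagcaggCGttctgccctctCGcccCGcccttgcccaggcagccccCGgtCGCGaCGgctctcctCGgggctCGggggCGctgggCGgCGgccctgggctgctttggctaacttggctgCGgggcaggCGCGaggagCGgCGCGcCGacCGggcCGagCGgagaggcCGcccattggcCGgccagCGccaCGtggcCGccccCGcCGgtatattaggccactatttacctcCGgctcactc

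These 250 bases held 40 CpG in HOXA13, 21 in HOXD13 and 31 in HOXD1. The unmarked HOXD1 promoter thus held more CpG than the marked HOXD13 promoter. The CpG count alone did not separate marked from unmarked HOX promoters.

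HOXA13 (ENSG00000106031.9_14, chr7:27233122-27239710, minus strand) encodes the most posterior factor of its cluster and is known from limb and genital development. It had 4879 and 4845 bp of H3K4me3 with ATRA and 4051 and 1044 bp in the control, so that both ATRA libraries stood above both control libraries. The upstream border of the domain lay at -1583 and -1726 bp from the TSS with ATRA and at -1642 and -890 bp in the control, which overlapped. The downstream border reached 3295 and 3118 bp into the gene with ATRA, and 2408 and 153 bp in the control. Control replicate 2, the smallest H3K4me3 list, was far shorter than the rest, and the order held against control replicate 1 alone. In the fit across all genes (limma on log2 of bp + 1000), the log2 difference was 0.87 ± 0.49 (SE), with a Benjamini-Hochberg adjusted p of 0.549. H3K27ac over HOXA13 was 0 and 200 bp with ATRA and 0 and 844 bp in the control, and none of it reached the TSS.

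HOXD13 (ENSG00000128714.6_6, chr2:176957449-176960672, plus strand), the posterior gene of HOXD, carried the longest domains of any HOX gene. Its H3K4me3 domain was 6568 and 6305 bp long with ATRA and 7891 and 5619 bp long in the control, and the groups overlapped. H3K27ac lay over much of the same stretch, with 3852 and 5290 bp over the gene and flanks with ATRA and 2709 and 4629 bp in the control. The longest H3K27ac domain within 3 kb of the TSS began at 571 and -66 bp from the TSS with ATRA and at 561 and 595 bp in the control, so it covered the TSS in ATRA replicate 2 alone. HOXD13 H3K4me3 differed by 0.03 ± 0.10 (SE) on the log2 scale (limma, adjusted p = 0.937). It was the only HOX gene with over 2 kb of both marks in every library.

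HOXC9 (ENSG00000180806.5_7) and HOXD11 (ENSG00000128713.14_7), posterior genes of HOXC and HOXD, were the other genes with a TSS peak throughout. HOXC9 had 2757 and 3158 bp of H3K4me3 with ATRA and 3254 and 2310 bp in the control. HOXD11 had 1395 and 1010 bp with ATRA and 1410 and 659 bp in the control. Both overlapped between the groups. The HOXD11 domain ended only 73 to 187 bp past the TSS in the 4 libraries and lay mostly upstream, whereas the HOXC9 domain reached 1352 to 1723 bp downstream. HOXC9 also had H3K27ac at the TSS in ATRA replicate 2 and control replicate 2, and HOXD11 had no H3K27ac peak.

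**Figure D2:**
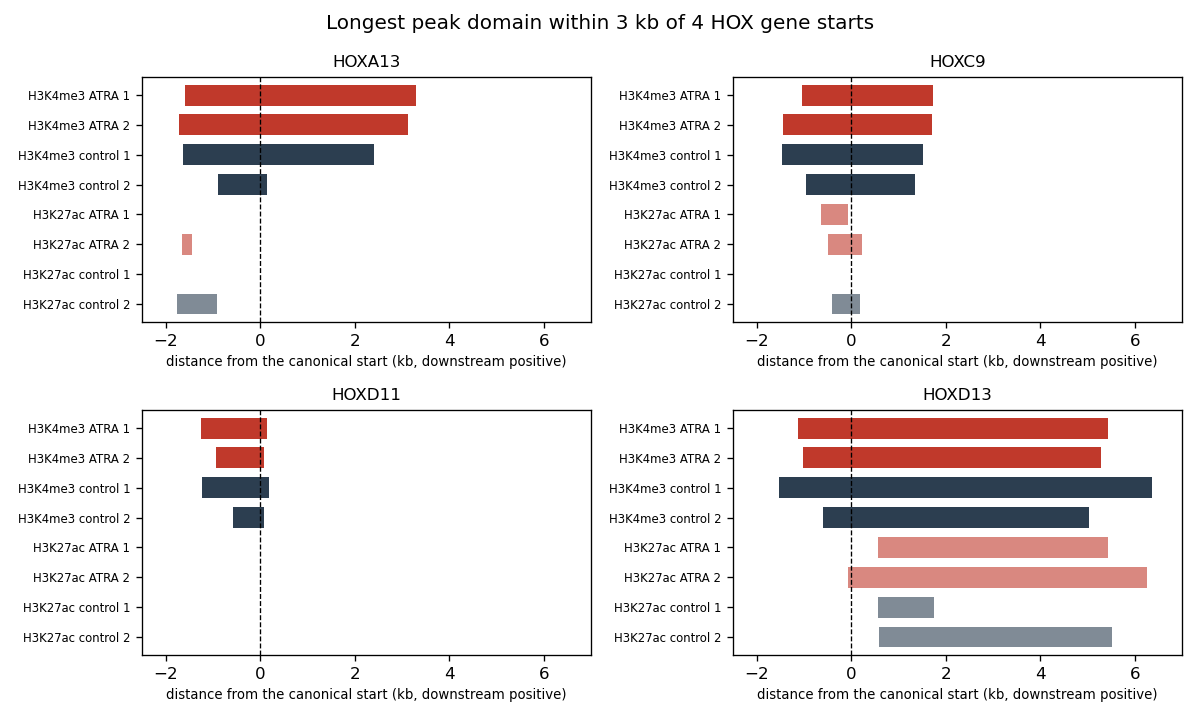
Bars span the longest peak domain (peaks joined over gaps of up to 1 kb) within 3 kb of the canonical start of HOXA13, HOXC9, HOXD11 and HOXD13 in each library, against distance from the start in kb with downstream positive; red is ATRA, dark blue control, and paler bars are H3K27ac. The HOXA13 H3K4me3 domain extends to 3295 and 3118 bp downstream with ATRA and to 2408 and 153 bp in the control, while the HOXD13 domains overlap between conditions.

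H3K4me3 coverage was higher in both ATRA libraries than in both control libraries for 2 of the 22 HOX genes that had a peak in at least 1 library (HOXA2 and HOXA13), against 38.4% of protein-coding genes, and lower for 0, against 4.85%. HOXA2, which patterns the hindbrain and the second pharyngeal arch, had 1785 and 1572 bp with ATRA and 1496 and 856 bp in the control. That coverage lay in its flank and came from the domain over HOTAIRM1, so with no flank HOXA2 had none. H3K27ac was higher for 5 of 13 HOX genes with a peak (HOXA9, HOXC4, HOXC6, HOXC8 and HOXC11), against 39.1%, and lower for 0, against 4.07%. Over the gene and flanks, 25 of 38 HOX genes had no H3K27ac peak, against 32.7% of all protein-coding genes, and 0 of 38 had one at the TSS in all 4 libraries, against 19.5%. A TSS peak of H3K27ac in some library occurred for HOXB3, HOXC9 and HOXD13.

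With each library divided by its total bp under peaks, HOXA2 and HOXA13 still had higher H3K4me3, and HOXD10 and HOXD13 had lower. Among protein-coding genes with a peak, 14.0% were then higher and 28.1% lower. The HOXD10 coverage lay in its flank and was the end of the domain at the HOXD11 start, and HOXD11 itself was not lower. For H3K27ac, HOXC4, HOXC6, HOXC8 and HOXC11 stayed higher, HOXA9 did not, and HOXD13 became lower, against 16.7% higher and 26.8% lower.

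The limma test across all genes with a peak in at least 2 libraries called no gene of either mark at an adjusted p of 0.05, that is 0% of 12452 genes for H3K4me3 and 0% of 12188 genes for H3K27ac. An unadjusted p under 0.05 was given to 1479 genes for H3K4me3 and 2115 genes for H3K27ac. Among 21 HOX genes tested for H3K4me3, adjusted p ranged from 0.549 to 0.994, and none had an unadjusted p under 0.05. Among 11 tested for H3K27ac, adjusted p ranged from 0.27 to 0.919. HOXC6 had the lowest, at a log2 difference of 1.15 ± 0.40 (SE), and it was the 1 HOX gene with an unadjusted p under 0.05. Its long interval takes in peaks also counted for HOXC4, HOXC8 and HOXC9, so this is not a value of HOXC6 alone.

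The HOXC cluster had the largest H3K27ac log2 ratio of the 4 clusters. That order did not hold without ATRA replicate 2, where HOXA had 1.94 and HOXC 1.68, and without control replicate 2 HOXA has no ratio, since its control is at 0 bp. H3K27ac was higher in both ATRA libraries for 4 of the 7 HOXC genes with a peak, of which HOXC6 counts peaks of the others, against 39.1% of all protein-coding genes with a peak. HOXC8, a central gene acting in the trunk, had 714 and 484 bp with ATRA and 0 bp in both control libraries. HOXC4, an anterior gene also active in lymphoid and erythroid cells, had 1343 and 900 bp with ATRA and 223 and 356 bp in the control. HOXC6 had 2628 and 2565 bp with ATRA and 223 and 1157 bp in the control, which included the peaks of HOXC4, HOXC8 and HOXC9. Over the canonical transcripts with their flanks, HOXC4 and HOXC6 were no longer higher, while HOXC8 and HOXC11 were. HOXC11 had 1533 and 1136 bp with ATRA and 0 and 525 bp in the control. H3K27ac at HOXC10 did not separate the groups, with 1294 and 3543 bp with ATRA and 0 and 2436 bp in the control.

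End to end, HOXC had 6612 and 9357 bp under H3K27ac peaks with ATRA and 223 and 3918 bp in the control. The log2 ratio of the means was 1.95 (exact permutation test, two-sided, p = 0.3333), and the groups did not overlap. Control replicate 1, with 15457 peaks in the genome, held a single HOXC peak of 223 bp, and without it the log2 ratio was 1.03. Per Mb of peaks in the library, HOXC had 102 and 108.6 bp with ATRA and 7.74 and 72.6 bp in the control, which did not overlap either. Whether the smaller control lists account for the difference was not tested. H3K4me3 over HOXC was 10697 and 8417 bp with ATRA and 11848 and 4461 bp in the control (log2 ratio 0.23, p = 1 by the exact permutation test).

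The HOXC H3K27ac fell into 10 separate regions, of which 9 were present in each ATRA library, 1 in control replicate 1 and 5 in control replicate 2. The groups did not overlap at 5 regions. A share over all regions of the genome was not computed, and regions were not divided by library totals. Among protein-coding genes with an H3K27ac peak, 39.1% were higher in both ATRA libraries. The region just past the upstream HOXC4 start (chr12:54411263-54412605) was the only one present in all libraries, and it measured 1343, 900, 223 and 356 bp in ATRA 1, ATRA 2, control 1 and control 2. The region before HOXC8 (chr12:54401448-54402371) and one between HOXC13 and HOXC12 (chr12:54342933-54343828) appeared in both ATRA libraries and in no control library. The region within HOXC11 and over the body of HOTAIR (chr12:54367635-54368486) measured 769 and 841 bp with ATRA and 0 and 525 bp in the control. All 7 HOXC genes with an H3K4me3 peak also had H3K27ac in some library, whereas HOXC5 and HOXC13 had neither mark.

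**Figure D3:**
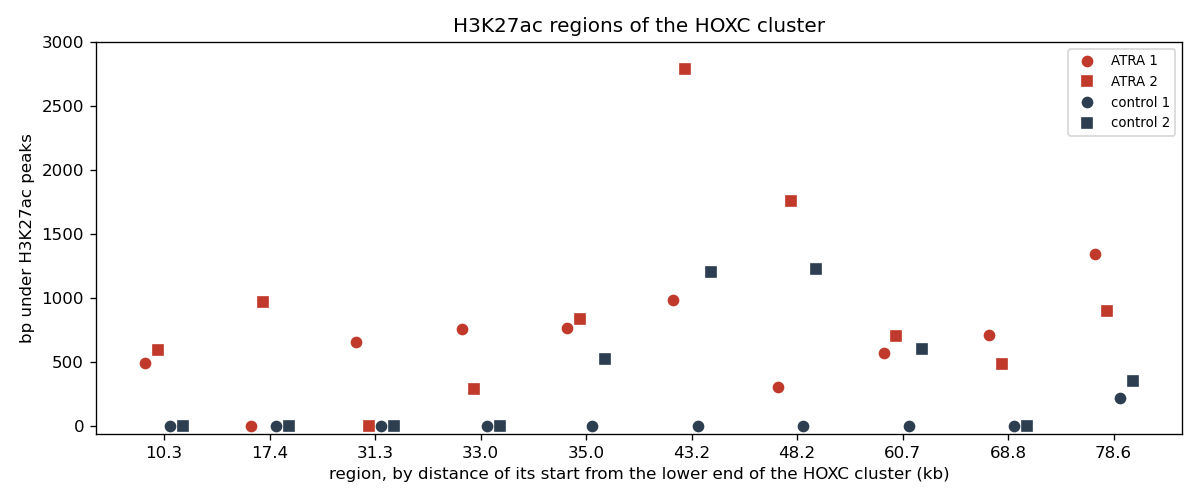
Points give the bp under H3K27ac peaks in each of 10 regions of the HOXC cluster (horizontal axis, distance of the region from the lower end of the cluster in kb) for each library; red is ATRA, dark blue control, circles replicate 1 and squares replicate 2. Control replicate 1 is at 0 in 9 regions, and the ATRA points stand above both control points in 5. The share of such regions over the genome was not computed.

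HOXA, the cluster tied most often to myeloid leukemia, had 3 H3K4me3 regions, each present in all 4 libraries. The first (chr7:27190196-27191635) covered 1440 and 894 bp with ATRA and 1088 and 639 bp in the control and lay at the upstream end of HOXA6, whose upstream start it reached in ATRA replicate 1 alone. The second, downstream of HOXA9 (chr7:27199328-27202516), measured 3159 and 2047 bp with ATRA and 2451 and 558 bp in the control. The third was the HOXA13 domain. HOXA9, a driver of leukemic self-renewal, had no peak of either mark at its canonical start in any library. Within the span of the members, from HOXA2 to HOXA13, H3K27ac occurred only over the second region, at 1600 and 1192 bp with ATRA and 0 and 835 bp in the control; per Mb of peaks these were 24.7, 13.8, 0 and 15.5 bp, which overlapped. Across the same span, which leaves out the HOTAIRM1 domain, H3K4me3 was 7895 and 6060 bp with ATRA. In the control it was 5948 and 1351 bp. The log2 ratio was 0.94, and it fell to 0.23 without control replicate 2. Per Mb of peaks in the library, HOXA H3K4me3 was 125 and 97.25 bp with ATRA and 99.39 and 28.3 bp in the control, which overlapped. HOXA4, HOXA5, HOXA10 and HOXA11 had no peak of either mark.

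HOXB carried H3K4me3 over 2 regions in all libraries, both inside the long HOXB3 gene model. The region at chr17:46673338-46676969 held a start of HOXB-AS3 and a start of HOXB6 other than the canonical start. It measured 2791 and 2199 bp with ATRA and 3153 and 1319 bp in the control. The other, at chr17:46662427-46664164, measured 1601 and 882 bp with ATRA and 1738 and 611 bp in the control. Another region, within HOXB8, was present in both libraries numbered 1 (1036 bp with ATRA, 750 bp in the control) and in neither library numbered 2. Cluster totals of H3K4me3 were 5428 and 3081 bp with ATRA and 5641 and 2134 bp in the control (log2 ratio 0.13, or -0.04 after division by library totals). H3K27ac totals were 2628 and 200 bp with ATRA and 1316 and 1444 bp in the control (log2 ratio 0.04, or -0.76 after division), so the ATRA replicates differed from each other more than the groups did. HOXB9 and HOXB13 had no peak, and HOXB5 had 401 bp of H3K27ac in ATRA replicate 1 alone.

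HOXD had 4 H3K4me3 regions. Besides HOXD13 and HOXD11, a region upstream of HOXD4 within the HOXD3 gene model (chr2:177004994-177006302) measured 944 and 322 bp with ATRA and 1309 and 0 bp in the control. It contained the single HOXD match to the CTCF core CCNNNAGNGGGCGC, searched on both strands, in the 3 libraries that had a peak there. CTCF is the insulator protein that bounds HOX domains. Its core occurred at 0.846 per 100 kb over HOXD with 10 kb on each side, against 0.109 over the 4 chromosomes of the clusters. HOXB held 1 match, under no peak of either mark, and HOXA and HOXC held 0. The region is not a promoter window, of which 1.29% held this core over all genes. The fourth region lay at starts of the non-coding genes HAGLR and HAGLROS (chr2:177041392-177044836). It measured 3167 and 3085 bp with ATRA and 2000 and 1888 bp in the control, so the replicates lay close together and the groups apart. Cluster totals in HOXD were 10941 and 9702 bp with ATRA and 11091 and 7578 bp in the control for H3K4me3 (log2 ratio 0.15, or -0.06 after division), and 4055, 6267, 2709 and 4935 bp for H3K27ac (log2 ratio 0.43, or -0.46 after division), all of it in the HOXD13 region. HOXD8 and HOXD9 had no peak of either mark.

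**Figure D4:**
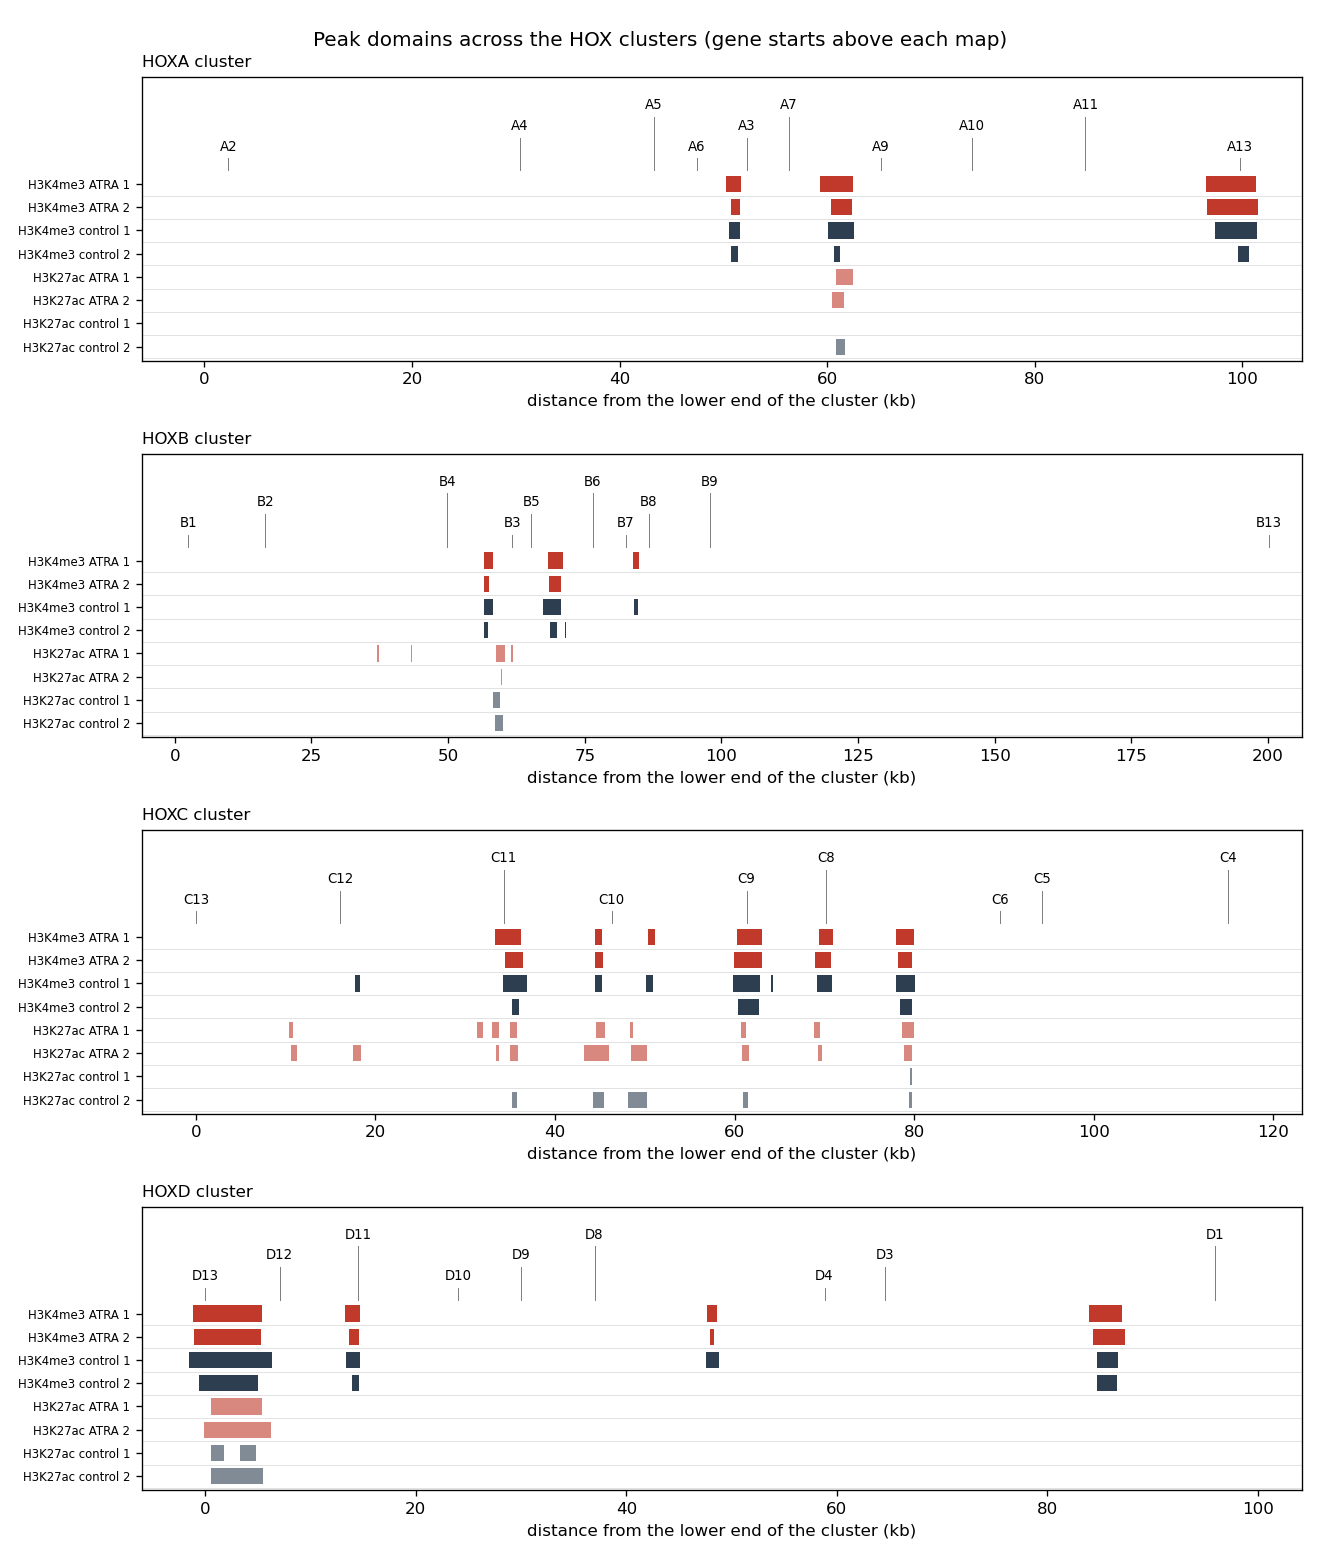
Bars show peak domains along each HOX cluster in each library (H3K4me3 above, H3K27ac below and paler; red ATRA, dark blue control), with gene starts marked above and distance in kb from the lower end of the cluster. The same few places carry H3K4me3 in both conditions, and H3K27ac in HOXC spreads over 9 regions in each ATRA library.

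**Figure D5:**
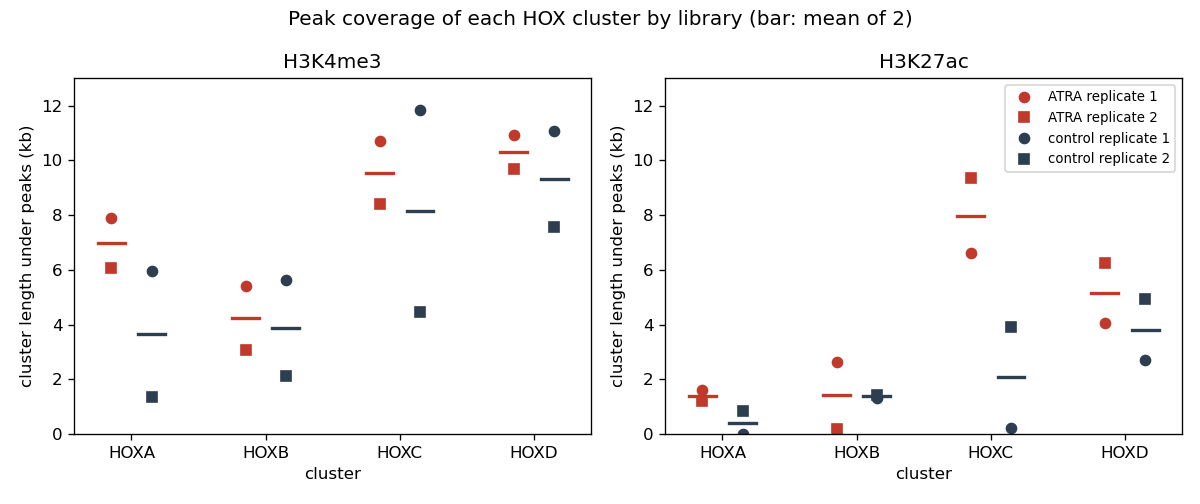
Points give the length in kb under H3K4me3 peaks (left) and H3K27ac peaks (right) in each HOX cluster and library, with a bar at the mean of 2 libraries. The HOXC H3K27ac points (6612 and 9357 bp with ATRA, 223 and 3918 bp in the control) and all HOXA points are separate between conditions, while HOXB and HOXD points overlap. After division by library totals (not drawn), HOXA overlaps for both marks and HOXC H3K27ac stays separate. HOXD H3K27ac is then lower in both ATRA libraries.

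Across the 4 clusters, H3K4me3 occupied 19 regions, of which 11 were present in all 4 libraries and 3 in a single library. The groups did not overlap at 3 of them. H3K27ac occupied 16 regions, of which 3 were present in all 4 libraries, and the groups did not overlap at 6. A share over all regions of the genome was not computed for either mark. Among protein-coding genes with a peak, 38.4% were higher and 4.85% lower in both ATRA libraries for H3K4me3. For H3K27ac these shares were 39.1% and 4.07%. Among the HOX genes, 12 had both marks in some library, 10 had H3K4me3 alone, 1 (HOXB5) had H3K27ac alone and 15 had neither.

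The longest domain of each cluster was compared as well. H3K4me3 domains of HOXC reached 2903 and 3158 bp with ATRA and 2993 and 2310 bp in the control (log2 ratio 0.19), and those of HOXB reached 2791 and 2199 bp with ATRA and 3153 and 1319 bp in the control (log2 ratio 0.16). For HOXA the log2 ratio of the longest H3K4me3 domain was 0.93, or 0.26 without control replicate 2 and 2.22 without control replicate 1. The HOXA value is that of the HOXA13 domain. The HOTAIRM1 domain lay just outside the span of the members and was not compared. It was longer in every library, at 7806 and 6902 bp with ATRA and 6513 and 6667 bp in the control. For HOXD the log2 ratio was -0.07. The longest of all measured 7891 bp, in clusters of 98187 to 200225 bp.

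The long non-coding genes of the clusters were described as a list of 12. H3K4me3 was higher in both ATRA libraries for 3 of the 7 with a peak (HOTAIRM1, HOTTIP and HAGLR), against 38.4% of protein-coding genes, and lower for 0, and HOTAIRM1 and HOXC-AS1 had a TSS peak in all 4 libraries. HOTAIRM1 had 6492 and 6279 bp with ATRA and 6203 and 5563 bp in the control, and it became lower with ATRA when libraries were divided by their totals. HOTTIP, which lies beside HOXA13, shares the HOXA13 domain, so its call is not a separate one. HOTAIR, known for directing Polycomb to chromatin, had 2192 and 1136 bp of H3K27ac with ATRA and 0 and 525 bp in the control. It was the 1 higher gene of 5 with an H3K27ac peak, against 39.1% of protein-coding genes. Apart from a further peak in ATRA replicate 1, this is the coverage counted for HOXC11, so its call is not a separate one. Of 5 microRNA genes of the clusters found in the annotation, 0 had a TSS peak of either mark.

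The proteins that act with or on HOX genes were also listed. Of 9 genes for HOX partners (the MEIS, PBX and PKNOX families), 4 had no H3K4me3 peak in any library, MEIS1 among them. The share over all protein-coding genes was 36.0%. A TSS peak in all libraries was found for 4 of the 9, against 50.4%. MEIS2 had 10788 and 9725 bp of H3K4me3 with ATRA and 9032 and 6959 bp in the control. It was the 1 gene higher in both ATRA libraries of 5 partners with a peak, against 38.4% of protein-coding genes. Of 21 regulators, 16 carried H3K4me3 at the TSS throughout, against 50.4% of all protein-coding genes. Of the 19 with a peak, 9 were higher in both ATRA libraries and 0 were lower, against 38.4% and 4.85% of all protein-coding genes with a peak. Divided by library totals, 3 were higher and 6 lower, against 14.0% and 28.1%. The Trithorax gene KMT2A, whose fusions activate HOXA genes in leukemia, had 7119 and 7387 bp of H3K4me3 with ATRA and 6715 and 6575 bp in the control. Of the 20 with an H3K27ac peak, 8 were higher and 2 lower, against 39.1% and 4.07%, and after division 4 were higher and 7 lower, against 16.7% and 26.8%. The Polycomb gene BMI1, lower in both ATRA libraries, had 1215 and 1402 bp with ATRA and 1508 and 3109 bp in the control.

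The 500 kb on each side served as the surroundings, called below and above by coordinate. H3K4me3 covered 2.50% and 2.23% of the flank below HOXA with ATRA and 2.11% and 1.99% in the control, and H3K27ac there was 4650 and 13626 bp with ATRA and 0 and 2344 bp in the control. Above HOXC, H3K27ac was 82921 and 91728 bp with ATRA and 30263 and 48193 bp in the control (log2 ratio 1.15, or 0.27 after division by library totals), and the groups did not overlap. Below HOXC, H3K27ac was 14976 and 25861 bp with ATRA and 11519 and 19062 bp in the control (log2 ratio 0.42, or -0.50 after division), which overlapped. Below HOXB, H3K27ac was 43707 and 44093 bp with ATRA and 20941 and 23935 bp in the control (log2 ratio 0.97, or 0.02 after division), while the HOXB cluster itself had a log2 ratio of 0.04. Among 11 neighbouring genes, 9 had an H3K4me3 peak. Of these, 2 had more H3K4me3 in both ATRA libraries, SKAP2 and HIBADH beside HOXA (HIBADH alone after division). CALCOCO2 beside HOXB was the 1 with less, at 4055 and 2591 bp with ATRA and 8445 and 4786 bp in the control. The shares over protein-coding genes with a peak were 38.4% higher and 4.85% lower. The neighbours were marked at the TSS in all 4 libraries in 7 of 11 cases, against 4 of 38 within the clusters and 50.4% of all protein-coding genes.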

How the data were processed

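HL-60 cells with ATRA or ethanol, 2 replicates each, were profiled by ChIP-seq for H3K4me3 and H3K27ac. The authors removed adapters (cutadapt), used Bowtie for alignment to hg19, and ran MACS2 in its broad mode (names per the labels and the study's methods; versions are not given in the sources used here). They deposited 1 peak list per library, with peak positions and −log10 q values. The fold and p columns did not behave as such and were not used.

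Peaks were intersected with GENCODE release 44 mapped to GRCh37; all 174751 peaks lay within its chromosomes. Covered bp were counted per gene with 2 kb flanks. A gene was called higher or lower where the groups did not overlap. For the test across all genes, log2(bp + 1000) was fitted with limma 3.58.1 (trend, genes covered in at least 2 libraries, Benjamini-Hochberg, 0.05), after a check on simulated data. Peaks up to 1 kb apart made a domain. Replicates were taken as the labels give them; nothing says that they were separate cultures, so p-values measure the spread between these libraries. Named genes were all members, and lists of non-coding genes, partners, regulators, neighbours and markers. Members and lists were chosen with earlier results of these data known. A further HOX gene is not analysed here, and some listed genes are not reported by name.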

Additional observations from a re-analysis of the deposited data

How the results depend on the processing

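Of 359 alternative values over 42 results, 287 were taken as the same as the main value. For a log2 ratio this meant the same direction. A count was taken as the same when close to the main count, even where the genes differed. Sampling by peak lists limits every result: read depth is unknown, the deposited −log10 q values hardly ordered peaks alike between replicates (Spearman 0.06 to 0.18, against 0.31 to 0.73 for peak length), and 2 libraries against 2 cannot reach p = 0.05 in the exact test. The cause of each change below was not tested, except that a left-out library or a narrower interval leaves less to compare.

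HOX genes with higher H3K4me3 numbered 1 with no flank and 6 with the replicate block (comparison within the same replicate number), and lower ones 2 after division by library totals. H3K4me3 TSS peaks in both ATRA libraries numbered 2 at the 5′ end of the annotated gene and 7 within 1 kb of the start; in both control libraries they numbered 2 at the 5′ end. HOX genes with higher H3K27ac numbered 3 with no flank, 8 with a 5 kb flank, 3 over the canonical transcript, 0 with peaks of −log10 q of at least 5, 2 with peaks of at least 1 kb and 9 with the replicate block, and lower ones 1 after division. Within 1 kb of the start, H3K27ac peaks in both libraries numbered 5 with ATRA and 1 in the control.

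Division by library totals turned the log2 ratio to -0.04 (HOXB) and -0.06 (HOXD) for H3K4me3 of the cluster, to -0.76 (HOXB) and -0.46 (HOXD) for H3K27ac of the cluster, to -0.03 (below HOXA), -0.17 (above HOXB), -0.01 (above HOXC), -0.07 (below HOXD) and -0.10 (above HOXD) for H3K4me3 of the surroundings, and to -0.56 (above HOXB), -0.50 (below HOXC) and -0.70 (below HOXD) for H3K27ac there. With peaks of −log10 q of at least 5, HOXB H3K4me3 turned to -0.28, and the flank above HOXD to -0.74 for H3K4me3 and 1.72 for H3K27ac. With peaks of at least 1 kb, HOXB H3K27ac turned to -0.82. Bridging 5 kb gaps turned the longest domain to -0.29 (HOXB) and -1.14 (HOXC) for H3K4me3 and 0.25 (HOXB) for H3K27ac. With 250 kb flanks, the ratio above HOXB turned to -0.14 for H3K4me3 and -0.03 for H3K27ac, and for H3K27ac below and above HOXD to -0.16 and 0.25.

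The replicate block turned HOXB H3K27ac to -0.93 and the flank above HOXD to 0.14, and in limma it called 0 HOX genes of either mark, but 1786 of 12188 genes for H3K27ac against 0 without it. Deviations from the group means correlated between same-numbered libraries at 0.223 for H3K4me3 and 0.556 for H3K27ac over 75783 bins of 40000 bp; the labels give these pairs only a shared number, and the deposited peak names give same-numbered libraries of a mark a shared tag whose meaning is not stated.

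Leaving out each library in turn gave 2 to 18 HOX genes with higher H3K4me3 (18 without control replicate 1) and 0 to 14 with lower (14 without control replicate 2), TSS peaks in 4 to 6, 5 to 10 with higher H3K27ac (10 without ATRA replicate 1), 0 to 1 with lower, 1 to 2 and 0 to 1 with H3K27ac TSS peaks with ATRA and in the control, and 0 to 1 HOX genes past limma for H3K27ac (HOXC8, without ATRA replicate 1), where the lone library is assumed to vary like the other group. Log2 ratios of H3K4me3 ranged over -0.41 to 1.00 (HOXB), -0.31 to 1.10 (HOXC) and -0.10 to 0.45 (HOXD) for the cluster, -0.34 to 0.92 (HOXB) and -0.29 to 0.20 (HOXD) for the longest domain, and -0.19 to 0.32 (above HOXB), -0.12 to 0.45 (below HOXD) and -0.33 to 0.68 (above HOXD) for the surroundings. Log2 ratios of H3K27ac ranged over -2.79 to 0.93 (HOXB cluster), -2.79 to 0.18 (HOXB longest domain), -0.01 to 3.21 (HOXC longest domain), -0.12 to 0.85 (above HOXB), -0.03 to 0.83 (below HOXC), -0.61 to 0.78 (below HOXD) and -1.40 to 1.77 (above HOXD). HOXC H3K27ac kept its direction at 1.03 to 5.16 when a library was left out. With peaks of −log10 q of at least 5, no ratio was obtained for H3K27ac of the HOXC cluster. At that threshold 0 HOX genes had higher H3K27ac, and limma tested only 1 HOX gene. Without control replicate 2 the HOXA H3K27ac control is 0 bp and gives no ratio.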
